A study of Mus musculus with 25 samples.

Results

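The 10 genes described here encode CTCF, 4 core subunits of the cohesin ring or their STAG partners (Smc3, Rad21, Stag1 and Stag2), both subunits of the cohesin loader (Nipbl and Mau2) and 3 factors that release or regulate cohesin on chromatin (Wapl, Pds5a and Pds5b). They were listed by name, by a rule that uses no measured value, and they are 10 of 21627 protein-coding genes that could be placed on the chromosomes of the peak lists. Each gene was given a window, its annotated body with 20 kb added on both sides, and peaks and covered base pairs (bp) were counted there in all 25 ChIP-seq peak lists of the series. ChIP-seq sequences the DNA that an antibody pulls down, and a peak is a stretch where that DNA piles up. The values below therefore describe what was bound at these genes, not how much RNA or protein they made.

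The series compared 2 mouse cell lines with and without the T cell transcription factor TCF-1. In DN3 cells of the Scid.adh line, a thymic lymphoma line that resembles an early stage of T cell development, TCF1 KO cells had 2 lists each for CTCF, the cohesin subunit SMC1, the loader subunit NIPBL and H3K27ac, an acetyl mark of active promoters and enhancers. Empty vector (EV) DN3 cells, called wild type in the sample titles, had the same lists and 2 lists of TCF-1 itself. In NIH-3T3 cells, a fibroblast line, TCF1 induced cells had 2 CTCF lists, 1 SMC1 list and 1 TCF-1 list. Untreated cells, called normal in the sample titles, had 2 CTCF lists and 1 SMC1 list. How TCF1 was removed or induced, and whether the KO cells were 1 clone, is not stated in the labels. TCF-1 was profiled only in EV and induced cells, so these lists do not check the loss of TCF-1 in KO cells. Nothing in the labels says that replicate lists came from separate cultures, so p-values measure only the spread between lists, which may be technical.

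Cohesin is a ring-shaped complex that loads onto DNA with the help of NIPBL and MAU2 and extrudes loops until it meets CTCF bound to its motif. WAPL, working with the PDS5 proteins, opens the ring and releases it, and loops anchored by CTCF and cohesin shape the T cell receptor loci and other genes during thymocyte development. TCF-1, the product of Tcf7, is needed for early T cell development and binds a short motif of the TCF/LEF family.

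List length differed between conditions, and this touches every comparison. KO lists held 55149 and 62353 CTCF peaks, against 42214 and 53729 in EV lists. They held 88886 and 96416 SMC1 peaks, against 70438 and 77587 in EV lists, and 14107 and 23951 NIPBL peaks, against 9206 and 15232. H3K27ac went the other way, with 36544 and 37629 peaks in KO lists and 38827 and 42180 in EV lists. Induced fibroblasts had 64645 and 68306 CTCF peaks, against 38369 and 41236 in untreated cells. Read totals are not in the lists, so depth behind each list is unknown and no interval for counting error was made. All 10 T lineage marker genes carried H3K27ac in every DN3 list, with a summed coverage of 325 and 338 kb in KO lists and 312 and 319 kb in EV lists, while Pax5 and Ebf1 (B lineage) and Lyz2, Csf1r and Mpo (myeloid) had none in any of them. Of 5 fibroblast markers, Col1a2, Col3a1 and Fn1 were at 0 in every DN3 list, and the list summed to 26.0 and 24.7 kb in KO lists and 15.2 and 17.2 kb in EV lists, nearly all of it at Pdgfrb. The part of this difference in the H3K27ac values below was not tested. The fibroblast lists held no H3K27ac, so NIH-3T3 identity was not checked in this way.

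Within 1 kb of the annotated start, or of either gene end for the 3 genes without an annotated start (Rad21, Stag2 and Nipbl), most members carried H3K27ac, SMC1, NIPBL and CTCF peaks, and fewer carried TCF-1 in DN3 cells. H3K27ac was found there for 9 of 10 members in every DN3 list, against 47.0 to 48.1% of all genes with a start. SMC1 and NIPBL were found there for 8 members in every DN3 list, the exceptions being Rad21 and Nipbl, against 45.3 to 47.9% of all genes for SMC1 and 31.8 to 45.7% for NIPBL. CTCF was found there for 6 members in every KO, EV, induced and untreated list (Ctcf, Smc3, Stag1, Stag2, Pds5a and Pds5b), against 23.5 to 35.3% of all genes. TCF-1 was found there for 4 and 3 members in the DN3 lists, against 16.2 and 16.1% of all genes. The H3K27ac, SMC1, NIPBL and CTCF counts were the same in KO and EV lists and the CTCF count in induced and untreated lists. These genes are broadly transcribed, and no comparison with equally active genes was made.

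TCF-1 peaks in EV DN3 cells lay in the windows of 3 members in both lists, Ctcf, Mau2 and Pds5a, and in 5 members when either list was enough, which adds Nipbl and Pds5b. A site in both lists was found at 21.5% of all gene windows, so 3 of 10 is close to that background. At Mau2, which encodes the partner of NIPBL in the loader, the peaks spanned the start, reaching from -624 to 413 bp relative to it in the first list and from -554 to 463 bp in the second. The same peaks span the start of Sugp1, a neighbour whose annotated end lies 35 bp away, so they cannot be given to either gene alone. At Pds5a, which encodes a cohesin-bound regulator, one site of 1083 bp covered the start. At Ctcf the peaks ended 53 and 18 bp before the start. All 3 sites overlapped SMC1, NIPBL and H3K27ac peaks in every KO and EV list, and the sites at Ctcf and Pds5a overlapped CTCF in every list, while Mau2 had no CTCF peak there in any list.

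The promoter bases of 4 members are shown because TCF-1 peaks lay over them in DN3 cells or fibroblasts, and because 2 of them hold a core stretch of the CTCF motif. They are RefSeq sequences of the GRCm38.p6 build, 5′ to 3′ on the strand of the gene, from 250 bases before the start up to the start, with any base inside the annotated body of the gene left out. Capitals mark letters searched for CTCF. The Ctcf bases are chr8:105636288-105636473 (plus strand), wholly covered by TCF-1 peaks in both DN3 lists and the fibroblast list, as are the Pds5a bases, chr5:65698237-65698486 (minus strand). The Smc3 bases, chr19:53600146-53600395 (plus strand), were covered in the fibroblast list and in neither DN3 list. The Pds5b bases, chr5:150673577-150673712 (plus strand), were covered in the first DN3 list and the fibroblast list.
Ctcf: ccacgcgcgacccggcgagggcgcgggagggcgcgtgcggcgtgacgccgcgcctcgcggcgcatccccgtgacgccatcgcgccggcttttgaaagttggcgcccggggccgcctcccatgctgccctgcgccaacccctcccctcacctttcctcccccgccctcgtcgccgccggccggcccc
Pds5a: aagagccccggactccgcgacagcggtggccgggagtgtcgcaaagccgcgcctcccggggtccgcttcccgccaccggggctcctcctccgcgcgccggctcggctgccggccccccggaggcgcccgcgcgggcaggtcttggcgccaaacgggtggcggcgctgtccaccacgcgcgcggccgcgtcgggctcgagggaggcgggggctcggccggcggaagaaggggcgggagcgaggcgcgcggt
Smc3: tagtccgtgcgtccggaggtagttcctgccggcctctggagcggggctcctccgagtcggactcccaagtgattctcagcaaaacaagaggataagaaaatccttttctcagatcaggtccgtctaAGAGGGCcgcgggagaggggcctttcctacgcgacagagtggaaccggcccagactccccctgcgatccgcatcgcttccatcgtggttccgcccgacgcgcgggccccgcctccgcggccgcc
Pds5b: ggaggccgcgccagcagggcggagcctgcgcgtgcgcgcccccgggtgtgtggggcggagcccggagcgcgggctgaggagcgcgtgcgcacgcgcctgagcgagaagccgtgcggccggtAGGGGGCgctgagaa

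The TCF/LEF letters searched on both strands were CTTTGAT as the first form, CTTTGTT as the second form, CTTTGAA as the third form and CTTTGTA as the fourth form. They were in none of the 8 promoter entries of the 7 members with one (Ctcf, Smc3, Stag1, Wapl, Pds5a, Pds5b and 2 of Mau2), over the 250 bases before the start. They were in 14.8% of 32851 promoters of that length. The letters searched for the CTCF core were AGGGGGC as the first form, AGGTGGC as the second form, AGATGGC as the third form and AGAGGGC as the fourth form. These were in 23.6% of promoters, and among the members AGAGGGC began 124 bases before the start of Smc3 and AGGGGGC began 129 bases before that of Pds5b. The matches in the members do not overlap each other. A match is a run of letters, not a site, and a window without one says nothing of the factor. The bases shown are rich in G and C, 79.0% for Ctcf, 80.4% for Pds5a, 64.4% for Smc3 and 79.4% for Pds5b.

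**Figure D1:**
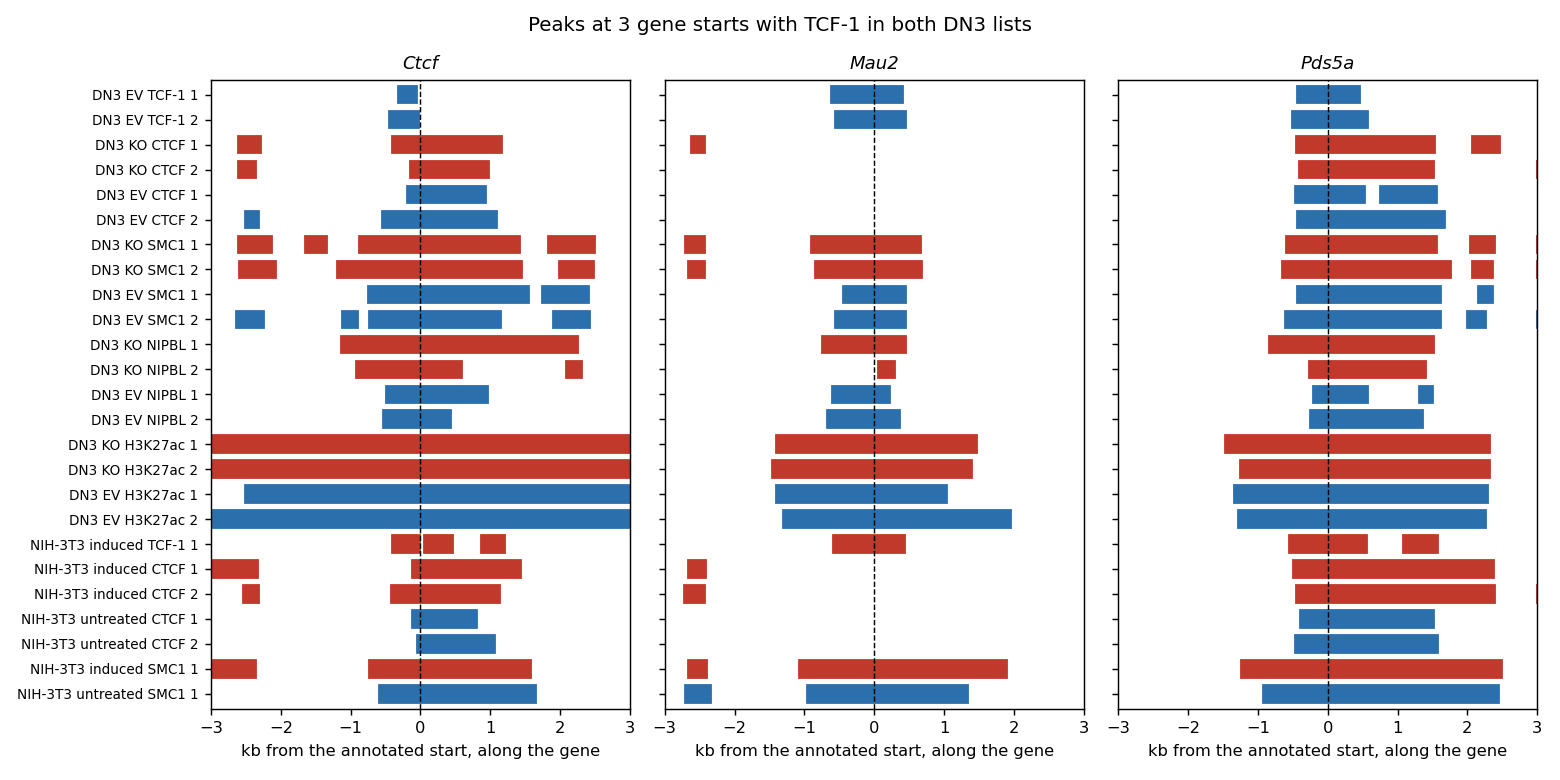
Peaks from 3 kb before to 3 kb after the annotated starts of Ctcf, Mau2 and Pds5a, 1 row per list, with KO or induced lists in red and EV or untreated lists in blue. The x axis is the distance in kb from the start along the gene (dashed line). TCF-1 peaks of both DN3 lists lie within 1 kb of all 3 starts, SMC1, NIPBL and H3K27ac peaks lie there in every list, and Mau2 has no CTCF peak at its start.

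In the window of Ctcf, CTCF peaks covered 4863 and 3575 bp in KO lists and 2751 and 4191 bp in EV lists, and the conditions overlapped. SMC1 peaks there covered 13833 and 13430 bp in KO lists, against 9010 and 10553 bp in EV lists. Both KO values lay above both EV values, but the limma difference of 0.46 on the log2(covered bp + 500) scale missed the threshold (adjusted p = 0.0516). Per length, Ctcf was the most heavily covered member in DN3 cells by CTCF, SMC1, NIPBL and H3K27ac. H3K27ac covered 29.0% of its window in KO lists and 26.8% in EV lists, where the median over all genes was 3.51% and 3.6%. The window is gene dense and also holds the bodies of Carmil2 and Acd and parts of Ripor1 and Pard6a, so these peaks are not all those of Ctcf.

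Among the ring genes, Smc3, which encodes the partner of SMC1 in the ring, had CTCF peaks over 3758 and 2845 bp in KO lists and over 1875 and 2289 bp in EV lists. Its SMC1 peaks covered 4355 and 5214 bp in KO lists, against 2964 and 2969 bp in EV lists. The conditions did not overlap for either antibody, and the SMC1 difference of 0.60 passed the threshold (standard error 0.15, limma adjusted p = 0.0376, n = 2 lists per condition). The CTCF difference of 0.55 did not (adjusted p = 0.505). Of its SMC1 regions, 2 were in both KO lists and no EV list, at 38.5 kb and 51.5 kb after the start. At equal list length the SMC1 difference of Smc3 was 0.39 (adjusted p = 0.124), and scaled by the total covered length of each list it was 0.15 (adjusted p = 0.62).

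Rad21, the kleisin that closes the ring, had the fewest CTCF and SMC1 regions of any member in DN3 cells, 3 and 2. SMC1 covered 1426 and 984 bp at Rad21 in KO lists and 1088 and 1510 bp in EV lists, and its NIPBL peaks covered 1679 and 618 bp in KO lists and 663 and 1532 bp in EV lists. For all 4 DN3 antibodies KO and EV lists overlapped at Rad21. A single H3K27ac peak lay at this gene in each list, covering 3005 and 2964 bp in KO lists and 3011 and 2883 bp in EV lists.

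Stag1 and Stag2 encode alternative subunits that bind the ring. At Stag1 SMC1 peaks covered 5428 and 5953 bp in KO lists, against 3987 and 4050 bp in EV lists, a difference of 0.45 that missed the threshold (adjusted p = 0.0559). H3K27ac covered 8486 and 11052 bp of the Stag1 window in KO lists and 6976 and 7879 bp in EV lists, and the conditions did not overlap. One H3K27ac region at Stag1, chr9:100710606-100714404 in mm10, was in both KO lists and neither EV list, as in 8.61% of all windows. It lies inside the annotated body, about 69.1 kb after the start. In the authors' own per-peak values, its peaks had fold enrichments of 2.54 and 2.88 in the first KO list and 2.8 in the second, against 11.6 and 11.2 for the peak at the Stag1 start in the same lists. Of the other H3K27ac regions of Stag1, 2 were in every list and 11 were in a single list or in 1 list of each condition.

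At Stag2, NIPBL peaks covered 2331 and 1701 bp in KO lists, against 376 and 711 bp in EV lists. Both KO values were above both EV values. The difference of 1.28 was the largest among the members for NIPBL, and it did not pass the threshold (standard error 0.62, adjusted p = 0.879). Its H3K27ac peak covered 5273 and 5423 bp in KO lists and 5029 and 5265 bp in EV lists.

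The loader genes differed in layout. Nipbl, whose product was itself immunoprecipitated, had 17 merged DN3 CTCF regions and 29 SMC1 regions in a window of 215.5 kb, the most of any member. SMC1 covered 11716 and 14958 bp there in KO lists, against 8938 and 10701 bp in EV lists, and CTCF covered 7290 and 6368 bp in KO lists, against 4042 and 5950 bp in EV lists. Neither difference passed the threshold, although the conditions did not overlap (SMC1 0.42, adjusted p = 0.0982). The single CTCF region among the members that both EV lists and no KO list held was at Nipbl, chr15:8443668-8444432, 1814 bp from an end of LOC102634078. One EV TCF-1 list had a peak on it, and SMC1, NIPBL and H3K27ac peaks were there in every list.

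At Mau2 SMC1 peaks covered 6059 and 6101 bp in KO lists, against 4118 and 4372 bp in EV lists. The replicates lay close together and the difference of 0.47 passed the threshold (standard error 0.13, limma adjusted p = 0.047, n = 2 per condition). Of the Mau2 SMC1 regions, 2 were in both KO lists and neither EV list, at 18.4 kb after and 2.56 kb before the start, the second nearer to an end of Sugp1. Scaled by list total the difference of Mau2 was 0.01 (adjusted p = 0.987). CTCF at Mau2 covered 3048 and 2331 bp in KO lists and 1847 and 2510 bp in EV lists, with overlap.

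Among the release and regulatory genes, Wapl, which encodes the release factor, had little CTCF, 883 and 200 bp in KO lists and 0 and 655 bp in EV lists, too little to be tested. Its H3K27ac peaks covered 6039 and 9364 bp in KO lists, against 5817 and 5536 bp in EV lists. The KO values lay above the EV values, but they were also far apart from each other. At Pds5b the CTCF peaks covered 3836 and 3601 bp in KO lists, against 1843 and 3041 bp in EV lists (difference 0.55, adjusted p = 0.517). The SMC1 values of Pds5b, 4242 and 4729 bp in KO lists and 3180 and 4434 bp in EV lists, overlapped.

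Pds5a was the member that moved in H3K27ac, and the only one that fell. Its window had 3793 and 3589 bp of H3K27ac in KO lists, against 6596 and 6523 bp in EV lists. The difference of -0.75 passed the threshold (standard error 0.08, limma adjusted p = 0.00534, n = 2 per condition). Of 13748 tested windows 18.8% were called, 10.3% lower and 8.46% higher, so a window called lower was not rare. The fall came from 1 region, chr5:65704350-65707361, centred 7.62 kb before the start, which both EV lists held and neither KO list did. Such a region was in 12.8% of all windows. The authors' fold enrichment of that peak was 4.88 and 5.29 in EV lists, above 71.7% and 76.4% of the peaks of those lists. The H3K27ac peak over the Pds5a start was in all 4 lists, with a fold enrichment of 9.6 and 10 in KO lists and 10.7 and 11.2 in EV lists, and a width of 3793 and 3589 bp in KO lists and 3642 and 3554 bp in EV lists.

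The upstream region of Pds5a kept a cohesin peak. This SMC1 peak was called in all 4 DN3 lists, with 452 and 512 bp in KO lists and 434 and 478 bp in EV lists. A further SMC1 peak lay on the region in the second EV list alone, from -7407 to -7023 bp relative to the start. CTCF was called on the region in both KO lists and 1 EV list, with 468 and 203 bp against 0 and 295 bp. No TCF-1 peak was called on the region in EV DN3 cells. In induced fibroblasts a TCF-1 peak of 482 bp lay on the same stretch, 8.88 kb before the start, and CTCF covered 2392 and 2376 bp there in induced lists and 309 and 1868 bp in untreated lists. Leaving out KO replicate 2, EV replicate 1 or EV replicate 2 of H3K27ac took the Pds5a call past the threshold (adjusted p = 0.054, 0.0824 and 0.0839), while the difference stayed between -0.79 and -0.72. Within the gene body alone the difference was 0.02 (adjusted p = 0.808), since the lost region lies outside it.

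**Figure D2:**
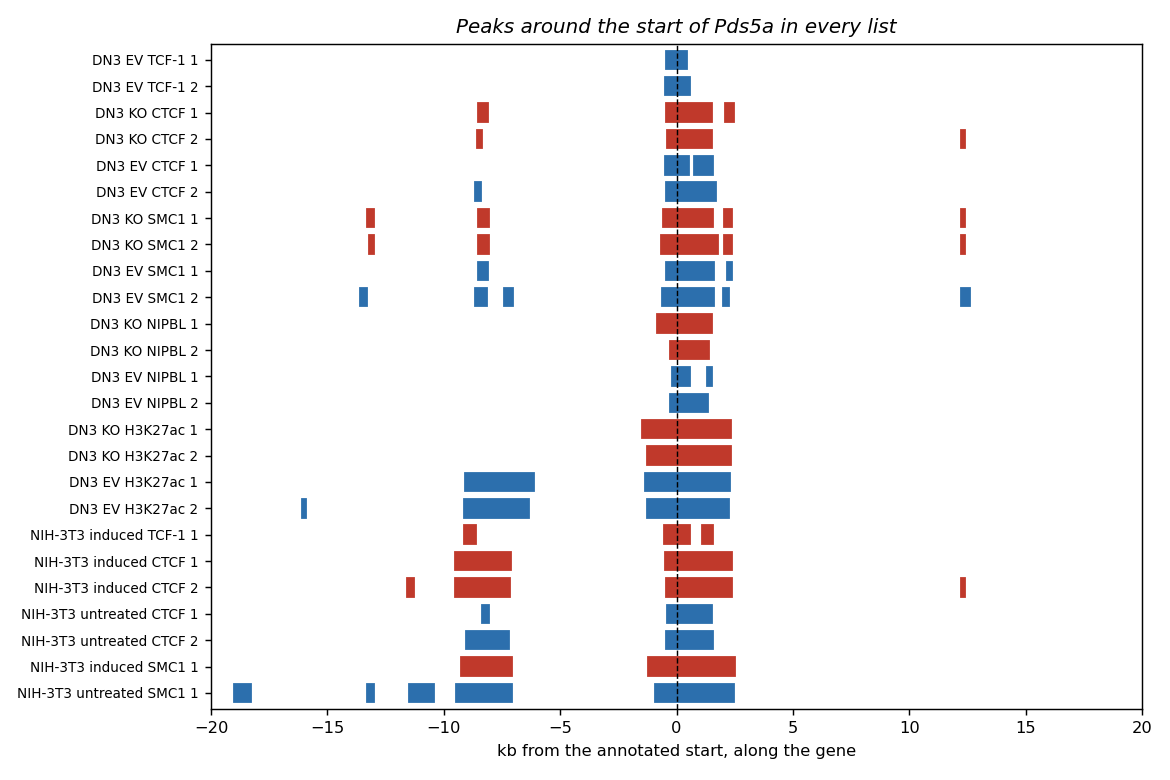
Peaks from 20 kb before to 20 kb after the Pds5a start in every list, as distance in kb along the gene, with KO or induced lists in red and EV or untreated lists in blue. The H3K27ac peak centred 7.62 kb before the start is in both EV lists and neither KO list, while the peak over the start is in all 4 and SMC1 peaks are at the upstream place in every list.

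Counted over the members, DN3 CTCF coverage was higher without overlap in 4 of 10 (Smc3, Stag1, Nipbl and Pds5b) and lower in none, where the background over all genes was 41.5% higher and 1.09% lower. By limma none of 9 tested members was called (background 0.594% higher and 0.0% lower), with 1 member and 1514 of 15320 genes at an unadjusted p under 0.05. For SMC1, 5 of 10 members were higher without overlap (Ctcf, Smc3, Stag1, Nipbl and Mau2) against 67.9% of all genes, with none lower against 1.76%. Limma called Smc3 and Mau2 higher, 2 of 10, where 15.7% of all windows were called higher and 0.192% lower. The members' shares were near those of all genes, or below them for SMC1 without overlap.

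The median SMC1 difference was 0.42 over the members and 0.34 over all tested genes, and that of CTCF was 0.26 over the tested members and 0.24 over all genes. Scaled by list total, 14 windows were called higher and 10 lower for SMC1 over the genome, against 2537 higher and 31 lower before scaling, and no member was called. At equal list length none of the members was called either, where 3.27% of all windows were called higher and 0.145% lower. With any 1 SMC1 list left out, the difference was 0.49 to 0.72 for Smc3 and 0.43 to 0.51 for Mau2. Each such fit leaves 1 list in a condition, so these ranges give the size of the difference. They do not show that the SMC1 calls of Smc3 and Mau2 held. With EV CTCF replicate 2 left out, 1 member was called for CTCF, and 13.8% of all windows were called higher.

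NIPBL coverage was higher in KO lists without overlap in 6 members (Ctcf, Smc3, Stag1, Stag2, Nipbl and Pds5a) and lower in none, where 26.3% of all windows were higher and 0.41% lower. Scaled by list total, 1 member was higher and 2 were lower, against 12.1% and 20.8% of all windows. At Ctcf, NIPBL peaks covered 9458 and 3976 bp in KO lists, against 3283 and 3489 bp in EV lists, so that the first KO list alone set most of the mean. That list was also the longest NIPBL list. Limma called no member and no gene (background 0.0%), with 1 member and 581 of 10680 genes at an unadjusted p under 0.05. The median difference was 0.50 over the members and 0.51 over all genes. No member had a NIPBL region that was in both lists of a condition and in none of the other, where 7.59% of all windows had one in KO lists and 0.476% in EV lists.

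H3K27ac was higher without overlap in 4 members (Ctcf, Stag1, Stag2 and Wapl), where 27.3% of all genes were, and lower in 1 (Pds5a), where 32.8% were. In every DN3 list the strongest H3K27ac peak of each member was in the upper part of that list, at the 92.6th to 99.7th percentile of the authors' fold enrichment. The strongest NIPBL peaks ranged more widely, from the 6.22th percentile in the Rad21 window to the 99.6th in the Nipbl window, both in the second KO list. That peak of the Nipbl window lay outside the annotated body of Nipbl, near an annotated end of Gm52208, a noncoding gene. The NIPBL peak within the Nipbl body was at the 32.7th percentile of the same list. For Mau2 the strongest NIPBL peak lay 46.3 to 46.5 kb after the start, at an annotated end of Gatad2a. For Pds5b it lay 8.24 to 8.44 kb before the start, at an annotated end of N4bp2l2. The annotation gives no strand, so these ends may be the starts of those neighbours. H3K27ac peaks lay at each of these ends in every DN3 list.

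**Figure D3:**
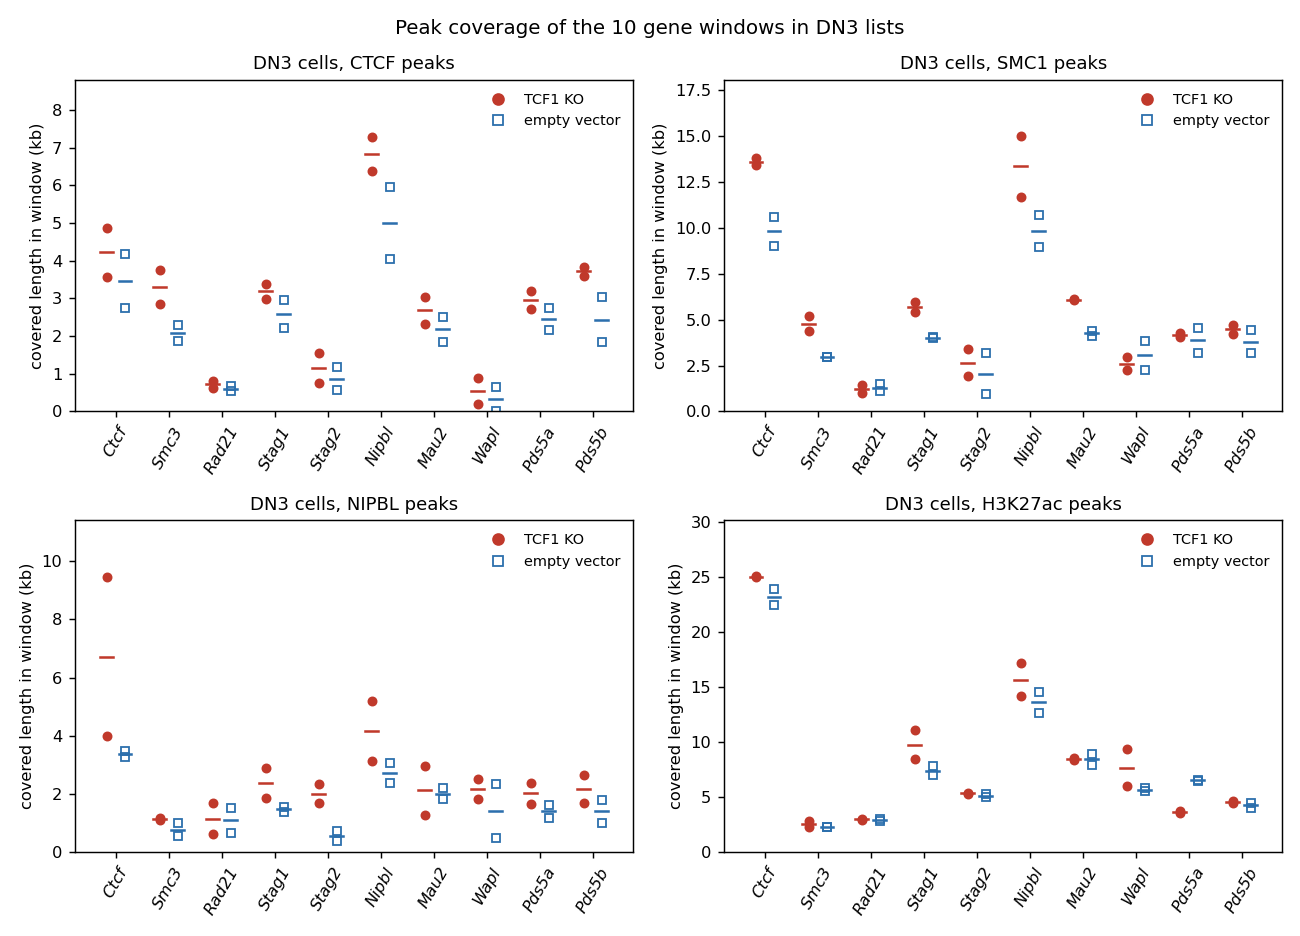
Covered length in kb of the 10 gene windows by CTCF, SMC1, NIPBL and H3K27ac peaks in DN3 cells, with 2 TCF1 KO lists (filled circles) left of 2 empty vector lists (open squares) for each gene and short lines at the means. Pds5a is the gene whose H3K27ac points fell in KO lists, and most SMC1 points of KO lists lie at or above those of EV lists.

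In fibroblasts CTCF coverage was higher in induced than in untreated lists at most of these genes. Mau2 had 4178 and 3482 bp in induced lists, against 395 and 907 bp in untreated lists, and the difference of 1.94 was the largest among the members (standard error 0.26, limma adjusted p = 0.0127, n = 2 per condition). Stag1 had 3896 and 4020 bp in induced lists, against 1810 and 1782 bp in untreated lists (difference 0.96, adjusted p = 0.0127). Stag2 had 1717 and 1564 bp in induced lists, against 481 and 585 bp in untreated lists (difference 1.05, adjusted p = 0.0127). Wapl was listed at 0 bp in both untreated lists and had 908 and 1183 bp in induced lists. Its difference is therefore set by the 500 bp added and is not a fold. Wapl met the filter, a mean of at least 500 bp, only through its induced lists. Its call (limma adjusted p = 0.0127) is therefore no support for a difference.

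The conditions did not overlap for any of these genes. Ctcf, with 5940 and 4218 bp in induced lists against 2448 and 2609 bp in untreated lists, was called with a difference of 0.86 (adjusted p = 0.0218). Pds5a was called with 0.92 (adjusted p = 0.0342) and Pds5b with 0.81 (adjusted p = 0.0286). Nipbl, with 6941 and 6357 bp in induced lists and 2656 and 5110 bp in untreated lists, and Smc3, with 5724 and 4415 bp against 3449 and 4063 bp, were higher without overlap but missed the threshold (adjusted p = 0.0724 and 0.107). Rad21 had 453 and 0 bp in induced lists and 0 bp in both untreated lists and was not tested.

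Thus 7 of 9 tested members were called higher, where 61.9% of all tested windows were and 0.0252% were called lower. Wapl, 1 of the 7, met the filter only through its induced lists. Without overlap 9 of 10 members were higher, where 89.3% of all genes were and 0.159% were lower. The median difference was 0.92 over the tested members and 0.67 over all genes. Scaled by list total, no member and no gene was called, and the difference of Mau2 was 1.30 (adjusted p = 0.14) and that of Ctcf 0.05 (adjusted p = 0.873). At equal list length Mau2 was the one member called (1.60, adjusted p = 0.0493). With any 1 list left out, the difference was 1.62 to 2.27 for Mau2 and 0.94 to 0.98 for Stag1. It was 0.98 to 1.12 for Stag2, 0.64 to 1.09 for Ctcf, 0.57 to 1.27 for Pds5a and 0.59 to 1.02 for Pds5b. A fit of that kind leaves 1 list in a condition, so these ranges give the size of the differences and do not show that the calls held. The difference with TCF-1 minus without it was larger in fibroblasts than in DN3 cells for all 8 members tested in both, as for 61.8% of all windows, with 0.0189% smaller. The covered length of the lists themselves was 37.55 and 34.28 Mb in induced cells and 17.77 and 20.08 Mb in untreated cells.

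Peaks found in both induced and no untreated CTCF list made up 17 of 71 CTCF regions in the member windows, spread over 8 members, and none was found only in untreated lists. Over all genes 49.7% of windows had such an induced region and 0.402% an untreated one. The widest, 1004 bp across, lay 2.82 kb before the start of Ctcf, and SMC1 was called on the same place in the induced list and not in the untreated list. In DN3 cells 7 of 74 CTCF regions, at 5 members, were in both KO lists and no EV list, and 16 of 112 SMC1 regions, at 7 members. Over all genes 19.2% of windows had a KO CTCF region of this kind and 32.0% a KO SMC1 region, and 2.11% and 5.1% had an EV region.

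The fibroblast SMC1 lists had 1 list per condition, so their differences have no replicate check. No member passed 1.5-fold in either direction, where 3.82% of all windows were past it upward and 7.43% downward. By peak number with 1 added, 3 members were past it, each lower in the induced list: Nipbl with 4 peaks in the induced list and 9 in the untreated list, and Stag1 and Mau2 with 6 peaks in the induced list and 10 in the untreated list each. Over all windows 6.83% were past it downward by that measure and 1.65% upward. Rad21 (higher) and Stag2 and Pds5a (lower) were at exactly 1.5-fold by peak number. The widest ratio was at Nipbl, with 6373 bp in the induced list and 9192 bp in the untreated list. Ctcf went the other way, with 9725 bp in the induced list and 8538 bp in the untreated list. SMC1 regions in the untreated list alone numbered 25 over 8 members and those in the induced list alone 7 over 6 members, of 80 regions in all. Over all genes 49.2% of windows had an untreated region of this kind and 33.8% an induced one.

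**Figure D4:**
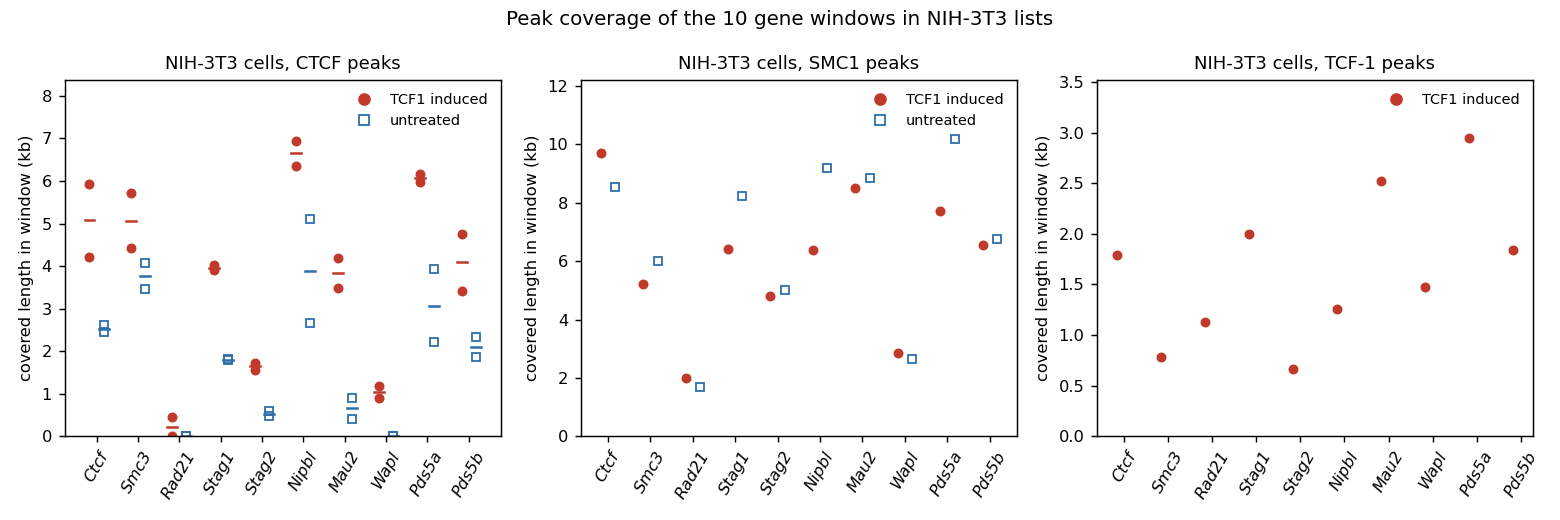
Covered length in kb of the 10 gene windows in NIH-3T3 lists, TCF1 induced (filled circles) left of untreated (open squares), with short lines at the means of 2 CTCF lists. CTCF points of induced lists lie above those of untreated lists for every gene but Rad21, SMC1 points lie close together, and TCF-1, profiled in induced cells alone, covers up to 2.95 kb (Pds5a).

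In induced fibroblasts TCF-1 peaks were found in the windows of all 10 members, 36 sites in all, where 68.1% of all windows had one. Pds5a had the most, 6 sites over 2947 bp, and Ctcf had 5. Stag2 and Smc3 had 2 each, the fewest. Of the 36 sites, 6 covered a start, those of Smc3, Stag1, Mau2, Wapl, Pds5a and Pds5b. CTCF peaks overlapped 15 of the sites in every fibroblast list and 18 in none, and SMC1 overlapped 29 in every list and 3 in none. The 3 DN3 sites at Ctcf, Mau2 and Pds5a were all shared with fibroblasts, and 4 of 7 sites in a single DN3 list were shared as well. The fibroblast TCF-1 list held 39489 peaks, against 4978 and 5356 in the DN3 lists, and the part of list length in this difference was not tested.

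**Figure D5:**
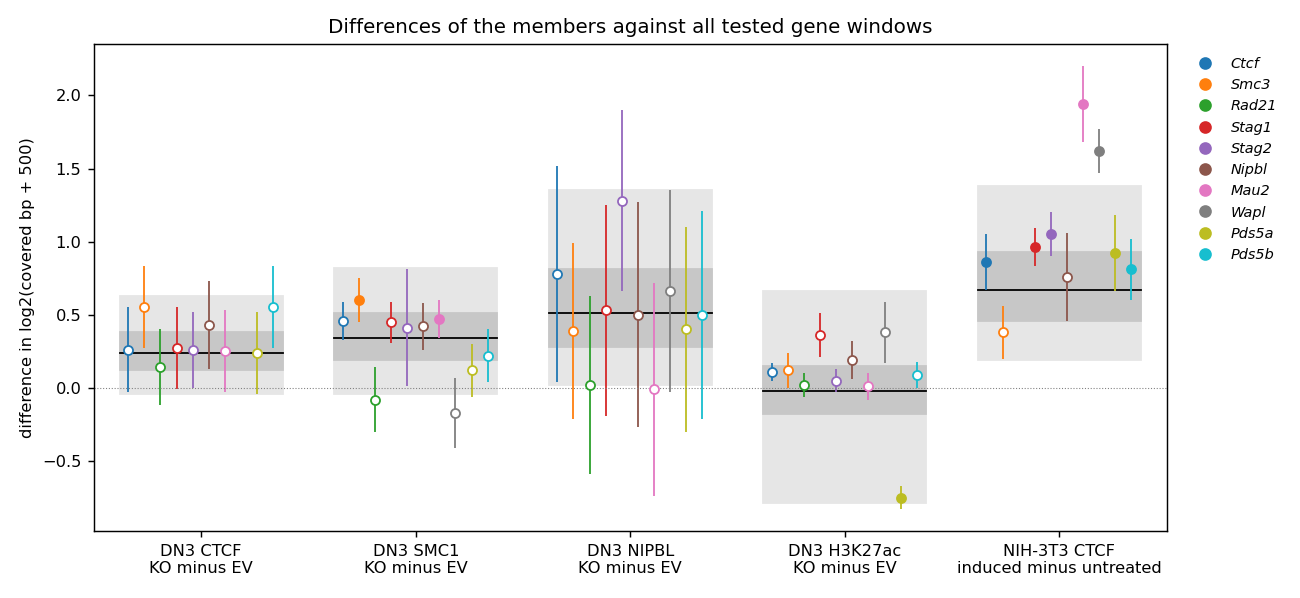
Differences in log2(covered bp + 500) of the tested members (points with standard errors from limma, filled where the adjusted p was under 0.05) in the 5 comparisons with replicates, against all tested gene windows (dark band, 25th to 75th percentile, light band, 5th to 95th, black line, median). Most points lie within the light bands. Mau2 and Wapl lie above it for fibroblast CTCF, Rad21 and Wapl for SMC1 and Mau2 for NIPBL lie just below it, and Pds5a is the lowest member for H3K27ac.

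Counts were also made for 17 other genes of the cohesin pathway and looping. For SMC1 3 of 16 tested were called higher in KO lists, where 15.7% of all windows were. Among them were Ctcfl, the germline paralog of CTCF (0.53, adjusted p = 0.0373), and Ldb1, a looping adaptor (0.44, adjusted p = 0.0465). Neither call held when scaled by list total, with a difference of 0.05 for Ctcfl (adjusted p = 0.891) and -0.04 for Ldb1 (adjusted p = 0.905), or without either KO list. For H3K27ac 2 of 15 were called higher and 1 lower, where 8.46% of all windows were called higher and 10.3% lower. Esco1, an acetyltransferase of SMC3, rose with 15.5 ± 2.55 kb in KO lists and 7.59 ± 1.25 kb in EV lists (SD, n = 2 each; 0.99, limma adjusted p = 0.0175). Rec8, a meiotic kleisin, fell with 6.29 ± 0.245 kb in KO lists and 8.29 ± 0.468 kb in EV lists (-0.37, limma adjusted p = 0.0438). With any one H3K27ac list left out neither passed the threshold, with an adjusted p of 0.0676 to 0.139 for Esco1 and 0.133 to 0.194 for Rec8. By peak number both missed it as well (adjusted p = 0.731 for each).

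No other pathway gene was called for DN3 CTCF, of 15 tested, or NIPBL, of 13 tested, with 1 gene of each at an unadjusted p under 0.05. For fibroblast CTCF 11 of 17 were called higher in induced cells, where 61.9% of all windows were, led by Rad21l (0.99, adjusted p = 0.0127), Ldb1 (0.82, adjusted p = 0.013), Espl1, the gene of separase (1.1, adjusted p = 0.0134), and Smc1b (0.87, adjusted p = 0.0138). Rad21l, with means of 1.16 kb in induced and 0.335 kb in untreated lists, met the 500 bp filter only through its induced lists. Smc1a, also among the 11, did so too (0.891 and 0.353 kb). The calls of Rad21l and Smc1a are therefore no support for a difference. Scaled by list total, Ldb1 had a difference of -0.03. Smc1a, the gene of the SMC1 protein that was immunoprecipitated, had SMC1 coverage of 1.03 ± 0.119 kb in KO lists and 1.19 ± 0.567 kb in EV lists (SD, n = 2 each).

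Across the 16 DN3 lists of CTCF, SMC1, NIPBL and H3K27ac, centred within each antibody, the windows whose coverage was most like that of Ctcf were those of Cpne7, Rpl13 and Snx32, with Pearson r of 0.99, 0.98 and 0.98 among 9955 genes. Those most like Nipbl were Osbpl9, Armh3 and Vezt, with r of 0.96, 0.96 and 0.95 among 9960 genes. The lists share their length and their depth across all genes, and these values are descriptions.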

How the data were processed

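Cells were crosslinked with 1% formaldehyde and libraries were read as pairs of 38 and 37 bp, per the labels' protocols. Bowtie2, MACS2, bedtools and mm10 are named per the submitters' processing notes, with versions and settings not given in the sources used here. For CTCF, SMC1 and TCF-1 the authors deposited positions only. The NIPBL and H3K27ac lists that the authors deposited have further columns without names. From their values and the usual MACS2 column order these were read as a score (not used), a fold enrichment, a −log10 p-value (not used) and a −log10 q-value per peak, as deposited, so each fold enrichment printed rests on that reading. The fold was used to rank peaks within a list, and the −log10 q-value to shorten lists. Lists of positions only were shortened by keeping their widest peaks.

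Peaks and covered bp were counted in gene windows of RefSeq GRCm38.p6, which gives no strand, so starts came from the RefSeq promoter table (7 of 10 members). Log2(covered bp + 500) was compared with limma 3.58.1 (trend) in R 4.3.3 over all windows with a mean of at least 500 bp, with Benjamini-Hochberg adjustment and a threshold of 0.05. With 2 lists against 2 an exact permutation test cannot go below 0.333. A gene had no overlap between conditions where all its values in one were above all in the other. Peaks of an antibody and cell line were merged at 1 bp of overlap in python 3.11.15. The code was tested on simulated data, the merging against bedtools 2.31.1.

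All members were named. Other pathway genes were named where called, up to 4 by lowest p (1 such gene is not reported here), and a neighbour where a peak lay nearer to it. The rule for the members uses names alone, but the members, gene lists and tests were chosen with earlier results of these data known. Alternatives were windows of 10 and 50 kb or none, added constants of 100 and 2000 bp, no filter, equal list length, a stricter threshold (peaks at or above the median q-value or width of their list), 50% overlap, scaling by list total, peak number, a replicate block, robust variance and leaving out each list.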

Additional observations from a re-analysis of the deposited data

Results flagged for a closer look

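The difference in CTCF coverage with TCF-1 minus without it was itself compared between the cell lines, as fibroblasts (induced minus untreated) minus DN3 cells (EV minus KO), for the 8 members that could be tested in both. It was above 0 for each at an adjusted p under 0.05 (limma over 15845 windows), and the same held for 61.8% of all windows, while 0.0189% were below. The log2 values were 2.20 for Mau2 (adjusted p = 0.00432), 1.36 for Pds5b, 1.31 for Stag2, 1.22 for Stag1, 1.20 for Nipbl, 1.16 for Pds5a, 1.12 for Ctcf and 0.93 for Smc3, with a highest adjusted p of 0.0253. In fibroblasts the difference of Mau2 was 1.94 and in DN3 cells -0.25. The CTCF lists also differ in length, with more peaks in induced than untreated fibroblasts and more in KO than EV DN3 cells, and its part in these values was not tested apart from the scaling given for each cell line.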

How the results depend on the processing

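The DN3 CTCF count of 0 called members became 1 by peak number, where 5.29% of all windows were called higher and 0.379% lower. The SMC1 count of 2 became 1 with a 10 kb window, by peak number or with 100 bp added. In those fits 8.55%, 5.25% and 13.6% of all windows were called higher. The SMC1 count became 0 within the gene body, at equal list length, under a stricter threshold, scaled by list total or with no filter. There 0.0731%, 3.27%, 1.61%, 0.0867% and 5.46% of all windows were called higher. The NIPBL count was 0 with each list left out. The H3K27ac count of 1 became 2 with a 50 kb window, where 11.6% of all windows were called higher and 14.4% lower. In the gene body the H3K27ac count became 0, where 3.77% were called higher and 3.78% lower. The fibroblast CTCF count of 7 became 3 in the gene body or under a stricter threshold. In those fits 42.8% and 21.2% of all windows were called higher. The fibroblast count became 1 at equal list length, 0 scaled by list total and 4 by peak number. There 6.04%, 0% and 22.1% of all windows were called higher.

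Members with no overlap, higher and lower, became for CTCF 2 lower scaled by list total, and 4 to 10 higher over lists left out. For SMC1 they became 1 higher and 4 lower scaled by list total and 1 lower at equal list length, and 5 to 8 higher and 0 to 3 lower over lists left out. For NIPBL they became 2 higher by peak number and 1 higher and 2 lower scaled by list total, and 6 to 10 higher and 0 to 2 lower over lists left out. For H3K27ac they became 2 higher under a stricter threshold and 0 by peak number, and lower 0 in the gene body, 2 under a stricter threshold and 2 by peak number, with 4 to 7 higher and 1 to 2 lower over lists left out. For fibroblast CTCF they became 4 higher and 1 lower scaled by list total, with 9 to 10 higher over lists left out. By peak number 3 members passed 1.5-fold for fibroblast SMC1, all lower in the induced list. Members with a DN3 TCF-1 site became 5 for sites in either list and 4 to 5 with 1 list left out.

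At equal list length regions in 1 condition became 2 KO and 2 EV for DN3 CTCF, 6 KO and 1 EV for SMC1, and 1 induced and 1 untreated for fibroblast CTCF. With a list left out they ranged from 7 to 18 KO and 1 to 3 EV for CTCF, 19 to 29 KO and 1 to 16 EV for SMC1, 0 to 7 KO and 0 to 1 EV for NIPBL, 1 to 7 KO and 1 to 7 EV for H3K27ac, and 18 to 31 induced for fibroblast CTCF. Of the values of named genes under alternatives, 187 kept direction and side of the threshold, 117 kept direction only and 3 changed sign, Ldb1 scaled by list total (SMC1 -0.04, fibroblast CTCF -0.03) and Pds5a H3K27ac in the gene body (0.02). Over lists left out the SMC1 difference ranged from 0.49 to 0.72 for Smc3 and 0.43 to 0.51 for Mau2, which gives its size and does not show that the calls held. Causes were not tested beyond these constructions.

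With the replicate number as a block, 5 members were called for SMC1, with 35.7% of all windows called higher, and no other count of called members moved, while the H3K27ac call of Rec8 was lost (adjusted p = 0.0568). The labels do not say that a number marks a shared culture, and same-numbered lists deviated together with r of -0.145 for CTCF, 0.121 for SMC1, -0.246 for NIPBL, -0.00587 for H3K27ac and -0.0115 for fibroblast CTCF. A crossed block, added after the data were seen, called 3 members for CTCF and 1 for NIPBL, with 17.5% and 5.52% of all windows called higher.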
